A study of Homo sapiens with 4 samples.

Results

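The 10 genes described here are the NF-kappaB subunits NFKB1, NFKB2, RELA and RELB, the inhibitors NFKBIA and TNFAIP3, the survival gene BIRC3, and the chemokines CXCL8, CXCL1 and CXCL2. They were chosen by symbol, as the rows carrying these names among 44591 genes in each count table, and all 10 were found and held enough counts to be tested. The libraries came from cultures labelled HepG2, a human cell line long used as a liver cancer model, transfected either with siNC, a control siRNA, or with siLINC01186, siRNA against the long noncoding RNA LINC01186, which the study calls SALIS. Each group held 2 libraries, numbered replicate 1 and replicate 2. All 4 cultures spent 6 h without serum after transfection and then 24 h with serum, and the study calls the replicates biological repeats without saying how separate the cultures were, so p-values measure the spread between these libraries. Per the study, both replicates received the same siNC but different oligos against LINC01186, without a label that ties an oligo to a library.

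NF-kappaB is a family of transcription factors held in the cytoplasm by inhibitor proteins. In the canonical branch, receptors for TNF, interleukin 1 or bacterial products activate the IKK kinase complex, IκBα (encoded by NFKBIA) is degraded, and dimers of p50 (from NFKB1) and RELA enter the nucleus. In the noncanonical branch, the p100 product of NFKB2 is processed to p52, which pairs with RELB. NFKBIA, TNFAIP3 and BIRC3 are themselves transcribed in response, and the inhibitors among them limit the response, while CXCL8, CXCL1 and CXCL2 encode chemokines that attract neutrophils. In liver, this response is known for its part in inflammation and in protecting hepatocytes from TNF-driven death.

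The DNA element that these factors bind, the kappaB site, is shown first because 7 of the members carry it just upstream of their start. RefSeq promoter windows on GRCh38.p14 were found for 9 of the 10 members, as 13 windows with 250 bases before the start site. The kappaB consensus, searched on both strands and counting overlapping matches, was present in 8 of these windows, belonging to NFKB1, NFKB2, NFKBIA, TNFAIP3, BIRC3, CXCL1 and CXCL2. Of all 35116 windows of the same length, 5.21% held a match. One match is printed for each of these genes and for CXCL8, on the strand of the gene, with the match in capitals; a match is a description and not a measured binding site.
NFKB1, chr4:102501300-102501329 (+): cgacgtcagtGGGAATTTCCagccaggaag
NFKB2, chr10:102394461-102394490 (+): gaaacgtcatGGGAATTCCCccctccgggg
NFKBIA, chr14:35404811-35404840 (-): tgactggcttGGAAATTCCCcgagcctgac
TNFAIP3, chr6:137867194-137867223 (+): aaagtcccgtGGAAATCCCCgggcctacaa
BIRC3, chr11:102317275-102317304 (+): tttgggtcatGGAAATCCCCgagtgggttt
CXCL8, chr4:73740468-73740496 (+): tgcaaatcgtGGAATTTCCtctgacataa
CXCL1, chr4:73869304-73869333 (+): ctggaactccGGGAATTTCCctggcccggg
CXCL2, chr4:74099254-74099283 (-): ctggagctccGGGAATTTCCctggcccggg
The CXCL1 and CXCL2 stretches carry the same 10-base match, at -79 to -70 and -78 to -69 from their start sites. NFKB1 carries the same match at -49 to -40. The printed matches lay on the opposite strand in NFKBIA (-81 to -72), TNFAIP3 (-55 to -46) and BIRC3 (-199 to -190). That of NFKB2 fitted the consensus on both strands. CXCL8 had no match to the consensus, but at -91 to -83 it had the 9-base core GGAATTTCC, which lies inside the NFKB1, CXCL1 and CXCL2 matches and, reversed, inside that of NFKBIA. This core was chosen after the sequences had been seen; it occurred in 0.413% of all windows and in those of 5 members. CXCL8 and NFKBIA also held TATAAA, found in 10.7% of all windows, and CXCL8 held TGANTCA, an AP-1 motif, found in 6.57%. Neither RELA window held any of these motifs.

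**Figure D1:**
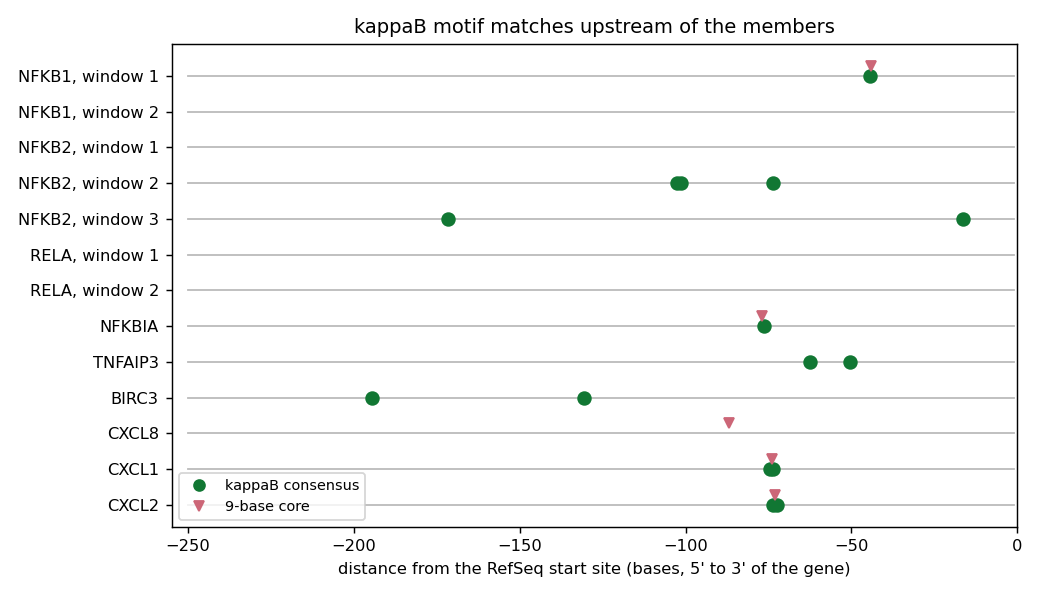
Positions of kappaB consensus matches (green circles) and of the 9-base core (pink triangles, drawn just above the line) in the 13 RefSeq windows of 9 members; the x axis is the distance from the start site in bases, and each grey line is 1 window of 250 bases. Matches in NFKB1, NFKBIA, TNFAIP3, CXCL8, CXCL1 and CXCL2 lie within about 100 bases of the start site. NFKB2 has matches both nearer and further than that, those of BIRC3 lie further away, and the RELA windows are empty.

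The counts summed to between 14968958 and 17297245 per library. In siNC, LINC01186 was counted 15 and 14 times, and the libraries labelled siLINC01186 held 12 and 14 of its counts (log2 fold change -0.12). The ratio of siLINC01186 to siNC was 0.938 in replicate 1 (95% counting interval 0.401 to 2.15). It was 0.908 in replicate 2 (0.401 to 2.06). A reduction was thus not detected in either pair, but with so few counts a ratio as low as 0.401 could not be told from 1 within a pair. The study reports knockdown in HepG2 cells, measured by qPCR. Every direction below is between libraries as labelled. The cell line label was checked against 10 hepatocyte genes. ALB, which encodes albumin, had 0 counts in both replicate 1 libraries and 15 and 14 in replicate 2, and APOA1 had 0, 0, 21 and 20 in the same order, so secreted proteins that define hepatocyte-like cells were at or near 0 in libraries labelled HepG2. HNF4A, a liver-enriched transcription factor, was present with 79 and 83 counts in replicate 1 and 161 and 188 in replicate 2. The summed level of the list was 4.9 and 6.3 CPM (a count scaled to the size of its library) in replicate 1 and 17.3 and 15.5 CPM in replicate 2, of which HNF4A made up 4.72 and 5.81 CPM in replicate 1 and 9.97 and 10.6 CPM in replicate 2. Of immune markers, PTPRC had 0, 0, 0 and 2 counts and CD3E had 0 in every library, but CD68, a lysosomal gene of macrophages and other cells, had 786 to 912, and CD14 and LYZ had 2 to 23. Of endothelial markers KDR had 0 in every library and CDH5 13 to 37. The summed immune list was at 51.2 to 55.7 CPM and the summed endothelial list at 1.79 to 3.22 CPM. AFP, also on the hepatocyte list, had 2 and 4 counts in replicate 1 and 6 and 16 in replicate 2. The summed fibroblast list was at 52.3 to 88.9 CPM, above the hepatocyte list in every library. The label HepG2 is thus kept as a label, and the identity of the cells was not tested. In bulk libraries, fewer cells of a type and less RNA per cell cannot be told apart.

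In the siNC libraries the subunits and NFKBIA were the most abundant of the 10 members. Levels are compared between genes as TPM, a count divided by gene length and scaled to the same total in every library. RELA, which carries the main transactivation domain of the canonical dimer, stood at 131 ± 13.3 TPM (SD, n = 2), above 95.9% of the 27919 genes with a count in siNC. NFKB2 followed at 111 ± 9.35 TPM (SD, n = 2), and its 2 libraries (117 and 104 TPM) lay below those of RELA (140 and 122 TPM). NFKBIA stood at 59.5 ± 4.23 TPM (SD, n = 2). NFKB1 and RELB were neighbours at 24 ± 4.7 and 21.8 ± 3.16 TPM (SD, n = 2), and their libraries overlapped. Thus each branch had 1 abundant and 1 scarcer subunit transcript, with NFKB1 below RELA and RELB below NFKB2. TNFAIP3, encoding the ubiquitin-editing enzyme A20, stood at 12.7 ± 0.491 TPM, and BIRC3, encoding the ubiquitin ligase cIAP2, at 7.03 ± 0.557 TPM (SD, n = 2). These 6 genes down to TNFAIP3 were at or above 10 TPM.

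The 3 chemokines were at the bottom of the order. CXCL2 stood at 3.15 ± 0.499 TPM and CXCL8 at 1.8 ± 0.393 TPM (SD, n = 2), around the middle of the genes with a count in siNC (52.3% and 45.2% of genes lower). Their 2 siNC libraries did not overlap. The siNC libraries held 2 and 3 counts of CXCL1, and the libraries labelled siLINC01186 held 0 and 2. With 3 counts taken as the floor, a library could show no less than 0.169 to 0.21 CPM, so CXCL1 was at or under its floor throughout and no fold is given; the floor and the intervals below cover counting error only. CXCL1 and CXCL2 transcripts share 60 stretches of 50 bases, 5.73% of those in CXCL1. Their longest shared run is 77 bases, and that of CXCL2 and CXCL3 is 97 bases. The study's paired-end reads were longer than these runs, so a full-length read reaches beyond them. The inducible genes thus ranged from NFKBIA at 59.5 TPM to CXCL1 at 0.28 TPM and both carry the 9-base core within 100 bases of the start.

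Between treatments, NFKB1 was the member that differed most in relation to its error. Its counts were 918 (replicate 1) and 661 (replicate 2) in siNC, against 542 and 437 in siLINC01186. On the CPM scale these were 54.8 and 40.9 against 37.9 and 24.6. Both libraries labelled siLINC01186 lay below both siNC libraries, although the lower siNC and the higher siLINC01186 library were close. The means were 47.9 ± 9.8 and 31.3 ± 9.44 CPM (SD, n = 2), a log2 fold change of -0.62 with a standard error of 0.25 in edgeR's quasi-likelihood test. The unadjusted p was 0.038 by this model across all genes, and the adjusted p was 1.00, so NFKB1 did not pass after Benjamini-Hochberg adjustment in this model, which holds treatment alone. It did not pass the study's limits either, because its log2 fold change was smaller than 1. With replicate number added to the model as a block, NFKB1 had a log2 fold change of -0.63 (edgeR adjusted p = 0.00105). That fit is kept as an alternative, because no label says what a replicate number shares. The replicate comparison below uses a model with the same terms, treatment and replicate number. NFKB1 (chr4:103422486-103538459, plus strand, hg19) overlaps LOC105377621, a long noncoding RNA on the opposite strand with 1, 0, 2 and 8 counts, which is few beside the counts of NFKB1.

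The other members gave no call between treatments. RELA had 167 and 143 CPM in siNC and 176 and 117 CPM in the libraries labelled siLINC01186, and NFKB2 had 210 and 184 against 220 and 149 CPM. For both genes the siLINC01186 libraries enclosed the siNC libraries, with the higher value in replicate 1. Their log2 fold changes were -0.08 (SE 0.23) for RELA and -0.09 (SE 0.22) for NFKB2. RELB, at 25.2 and 20.3 CPM in siNC and 31.8 and 17.3 CPM in siLINC01186, showed the same arrangement, and its log2 fold change was 0.11 (SE 0.30). NFKBIA was at 40.8 and 44.6 CPM in siNC and 46.8 and 44.6 CPM in siLINC01186, with its replicate 2 libraries equal to 3 digits (log2 fold change 0.10, SE 0.18). TNFAIP3 had 28.4 and 26.6 CPM against 27.1 and 23 CPM (log2 fold change -0.14, SE 0.20). TNFAIP3 overlaps a pair of genes on the other strand with 17 to 32 counts each, against 387 to 476 for TNFAIP3 itself, and without strand such reads cannot be told apart. BIRC3 had 21.1 and 23.4 CPM against 21.9 and 20.5 CPM (log2 fold change -0.07, SE 0.20). CXCL8, at 1.19 and 1.61 against 1.4 and 0.844 CPM, and CXCL2, at 1.55 and 1.92 against 1.82 and 0.731 CPM, rested on 13 to 31 counts a library, and their log2 fold changes of -0.33 (SE 0.51) and -0.46 (SE 0.54) were smaller than their errors.

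Counted against the 23942 genes tested, 1 of the 10 members had an unadjusted p under 0.05, where 1.21% of all genes did. None passed the study's limits, a log2 change of more than 1 together with that p, which 0.756% of genes passed, and in this model no gene at all (0%) had an adjusted p under 0.05. At unadjusted p under 0.05 there were 289 genes, and DESeq2's Wald test left 1 gene with an adjusted p under 0.05. With replicate number added to edgeR's model as a block, 278 genes had an adjusted p under 0.05, NFKB1 among them. NFKB1 was the 1 member above the floor with both siLINC01186 libraries lower than both siNC libraries, an arrangement that 12.4% of genes showed. The median log2 fold change was -0.12 over the members and 0.00 over all genes. Of 71 other tested genes of the pathway, 0 had an unadjusted p under 0.05 in this comparison.

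**Figure D2:**
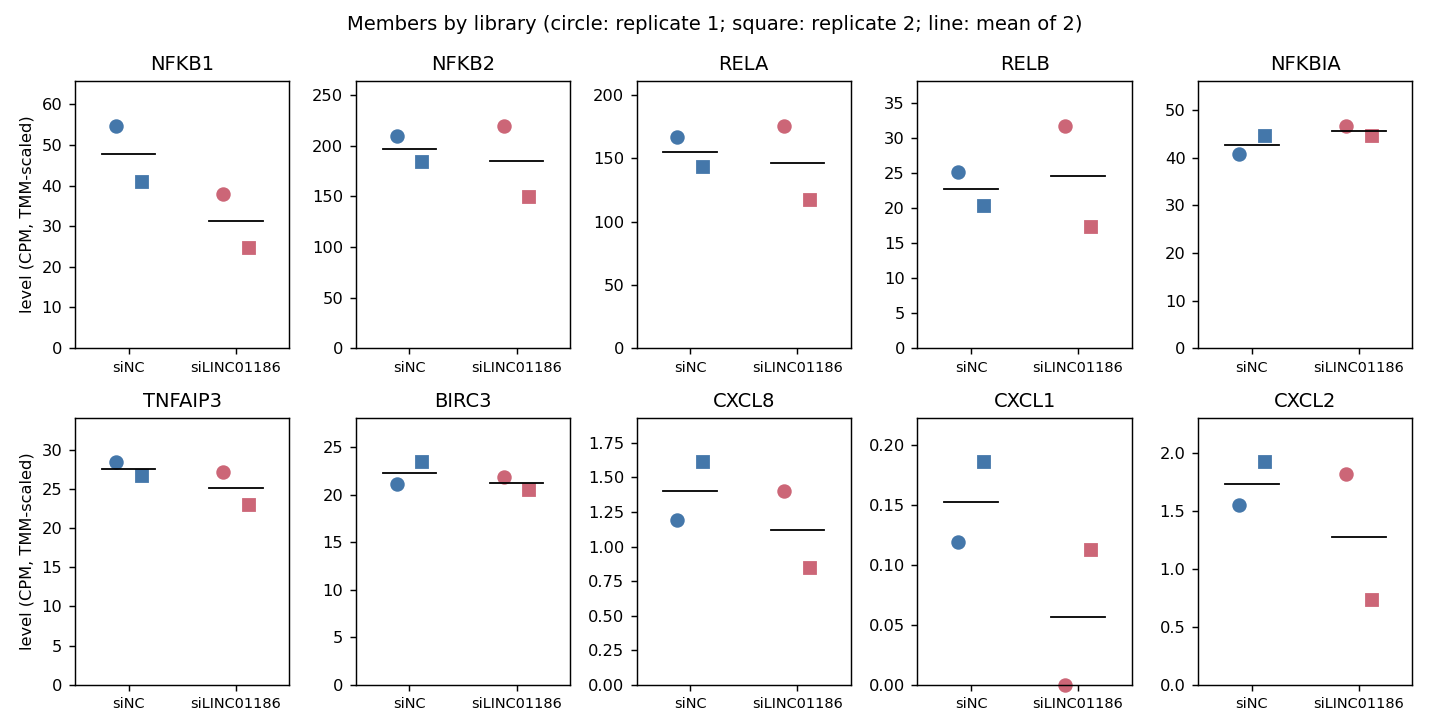
Level of each member in each library (y axis: CPM on TMM-scaled libraries, starting at 0; x axis: siNC in blue and siLINC01186 in red; circles are replicate 1, squares replicate 2 and lines the mean of 2 libraries). NFKB1 is lower in both siLINC01186 libraries, at 37.9 and 24.6 CPM, whereas for NFKB2, RELA and RELB the siLINC01186 libraries lie on both sides of the siNC libraries.

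Because the replicates received different oligos, the ratio of siLINC01186 to siNC was also taken within each replicate number, with 1 library against 1 and hence no test of the treatment. NFKB1 stood at 0.692 of siNC in replicate 1 (95% counting interval 0.621 to 0.771) and at 0.601 in replicate 2 (0.531 to 0.679). The intervals overlap, and both lie below 1. NFKB1 and TNFAIP3 were the 2 members above the floor that were lower within both numbers, as were 26.2% of all genes. For TNFAIP3 the ratios were 0.953 (0.831 to 1.09) and 0.864 (0.753 to 0.992), the first within counting error of 1.

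Among the other subunits, RELB alone differed in opposite directions in the pairs, each beyond counting error, as did 3.33% of all genes. RELB stood at 1.26 of siNC in replicate 1 (95% counting interval 1.1 to 1.44) and at 0.853 in replicate 2 (0.727 to 1). RELA stood at 1.05 (0.998 to 1.11) and 0.82 (0.773 to 0.871), and NFKB2 at 1.05, with 1 inside its interval, and 0.811 (0.769 to 0.855). Thus in replicate 2 all 4 subunits were below siNC, while in replicate 1 only NFKB1 was. Whether the pairs differ was not tested, and libraries of 1 group also differed beyond counting error. NFKBIA was at 1.15 (1.03 to 1.28) and 1 (0.903 to 1.11), and BIRC3 at 1.04 (0.887 to 1.21) and 0.879 (0.759 to 1.02). CXCL8 and CXCL2 were both at 1.17 in replicate 1, with intervals of 0.599 to 2.3 and 0.654 to 2.1. In replicate 2 CXCL8 was at 0.524 (0.258 to 1.03) and CXCL2 at 0.381 (0.183 to 0.749), the lowest ratio of the 9 members above the floor. CXCL2 was the 1 member past a log2 difference of 1 in the replicate 2 pair, where 9.61% of genes were, and 0 members were past it in the replicate 1 pair, where 9.77% were. The members' median log2 difference was 0.07 in the replicate 1 pair and -0.29 in the replicate 2 pair, beside 0.01 and 0.00 over all genes.

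**Figure D3:**
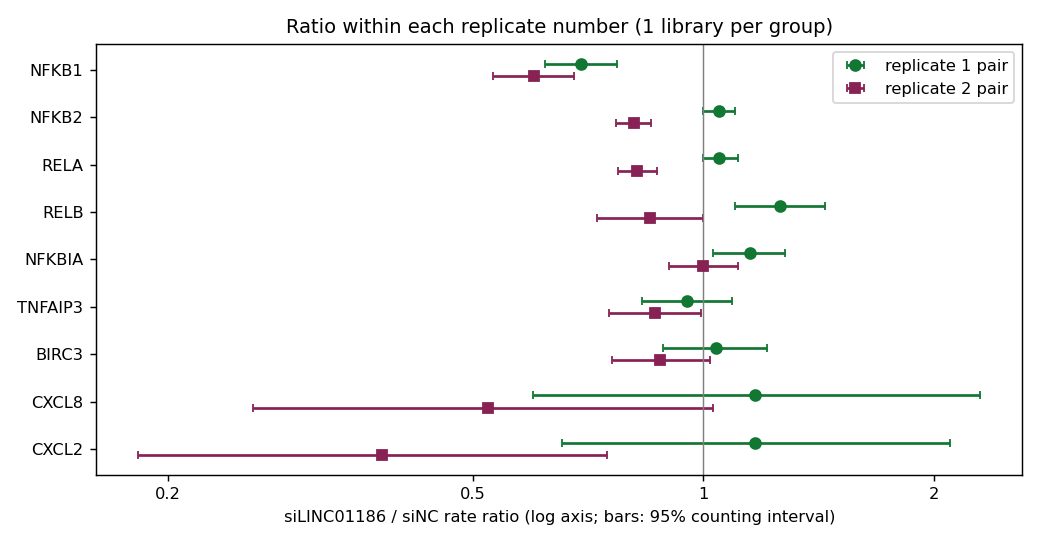
Ratio of siLINC01186 to siNC within each replicate number for the 9 members above the floor (x axis: rate ratio, log scale; bars: 95% counting interval; circles are replicate 1 and squares replicate 2, each 1 library against 1). NFKB1 lies below 1 in both pairs, at 0.692 and 0.601, and CXCL2 lies furthest below 1 in replicate 2, at 0.381.

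Short interfering RNAs can also bind 3′UTRs through their seed, bases 2 to 8, as microRNAs do. The study's tables list 2 oligos against LINC01186, shown here as printed there with bases 2 to 8 in capitals, because the match of these bases was searched in the members' 3′UTRs.
siSALIS_01: aGGGCTCTattgggcaaaaa
siSALIS_02: cTAAGTGActcactgcatc
Which strand of each oligo would do the binding was not determined, so seeds were taken from the strand as printed and then from the other strand. For the strand as printed, the complement of the siSALIS_02 seed, TCACTTA, was present in the longest GENCODE 3′UTR of 2 members, NFKB1 and CXCL2. It was present in 11.3% of 19120 genes. Only the sites for the strand as printed are shown, on GRCh38 and on the strand of the gene, with the match in capitals. Showing them is not a choice of that strand as the one that binds.
NFKB1, chr4:102616771-102616800 (+): tttagtttggtTCACTTAcagatagtatct
CXCL2, chr4:74097612-74097641 (-): gtgtttgagcaTCACTTAggagaagtcttc
In NFKB1 the site began 188 bases after the stop codon in a 3′UTR of 708 bases, and in CXCL2 126 bases after it in one of 721 bases. The complement of the siSALIS_01 seed, AGAGCCC, was in the 3′UTR of none of the 10 members and of 12% of genes. Taken from the other strand of each oligo, the seed matches were GGCAAAA in TNFAIP3 (13.2% of genes) and ACTGCAT in CXCL8 (12.6% of genes). These began 586 bases after the stop codon in TNFAIP3 and 1110 bases after it in CXCL8. With 2 of 10 members, the siSALIS_02 site was found at a share near the 11.3% of all genes. Which library received which oligo is not in the labels, and the part of these sites in the results was not tested.

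Between replicates, all 4 subunits were lower in replicate 2 than in replicate 1, while the inhibitors, BIRC3 and the chemokines gave no call. This comparison holds treatment in the model and asks whether the members differed between the numbered sets of libraries. RELB stood at 28.5 ± 4.65 CPM in replicate 1 and 18.8 ± 2.11 CPM in replicate 2 (SD, n = 2), a log2 fold change of -0.60 with a standard error of 0.15 and an adjusted p of 8.76e-04 in edgeR's quasi-likelihood test. NFKB1 stood at 46.4 ± 11.9 and 32.8 ± 11.6 CPM (SD, n = 2), with a log2 fold change of -0.52 (SE 0.14, edgeR adjusted p = 0.00168). RELA stood at 171 ± 6.32 and 130 ± 18.1 CPM (log2 fold change -0.41, SE 0.11, edgeR adjusted p = 0.00276), and NFKB2 at 215 ± 7.14 and 166 ± 24.6 CPM (log2 fold change -0.38, SE 0.11, edgeR adjusted p = 0.00476). For RELA, NFKB2 and RELB both replicate 2 libraries lay below both replicate 1 libraries. For NFKB1 the replicates overlapped, since replicate 2 of siNC, at 40.9 CPM, was above replicate 1 of siLINC01186, at 37.9 CPM.

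These calls depended on the model. With DESeq2's Wald test 0 of the 4 subunits had an adjusted p under 0.05, and without treatment in the model RELB alone did. With 1 library left out there was no treatment term, so a treatment difference can enter the replicate estimate. The log2 fold change of NFKB1 was then -0.21 without siNC replicate 1 and -0.19 without siLINC01186 replicate 2. It was -0.74 without siLINC01186 replicate 1 and -0.89 without siNC replicate 2. Without siNC replicate 1, siLINC01186 replicate 1 or siLINC01186 replicate 2, NFKB2 was at -0.40, -0.33 and -0.23. RELA was at -0.44, -0.36 and -0.27 in the same order. Without siNC replicate 2, NFKB2 was at -0.50 and RELA at -0.52. RELB ranged from -0.76 without siNC replicate 1 to -0.43 without siLINC01186 replicate 1. Of all genes, 9.55% were lower and 7.96% higher in replicate 2 at an adjusted p under 0.05 from edgeR's test, against 4 and 0 of the members. NFKB2, RELA, RELB and TNFAIP3 were the 4 members with both replicate 2 libraries lower, as were 25.6% of genes. The hepatocyte list moved with this comparison: 6 of its 8 tested genes were higher in replicate 2, as were 3 of 5 fibroblast genes, whose summed level was 54.7 and 52.3 CPM in replicate 1 and 88.9 CPM in both replicate 2 libraries. Their part in the lower level of the subunits was not tested.

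The 6 members that are not subunits gave no call between replicates. NFKBIA was at 43.8 ± 4.23 CPM in replicate 1 and 44.6 ± 0.0153 CPM in replicate 2 (SD, n = 2; log2 fold change 0.03, SE 0.13). BIRC3 was at 21.5 ± 0.546 and 21.9 ± 1.99 CPM (log2 fold change 0.03, SE 0.15). TNFAIP3 was at 27.8 ± 0.942 and 24.8 ± 2.56 CPM (log2 fold change -0.17, SE 0.14), and its replicate 2 libraries both lay below those of replicate 1. CXCL8 was at 1.3 ± 0.145 and 1.23 ± 0.542 CPM and CXCL2 at 1.69 ± 0.189 and 1.33 ± 0.841 CPM (SD, n = 2), with standard errors of 0.43 and 0.40 on log2 fold changes of -0.10 and -0.40. The median over the members was -0.27, beside 0.02 over all genes. Whether the subunits differed from the other members in this comparison was not tested.

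**Figure D4:**
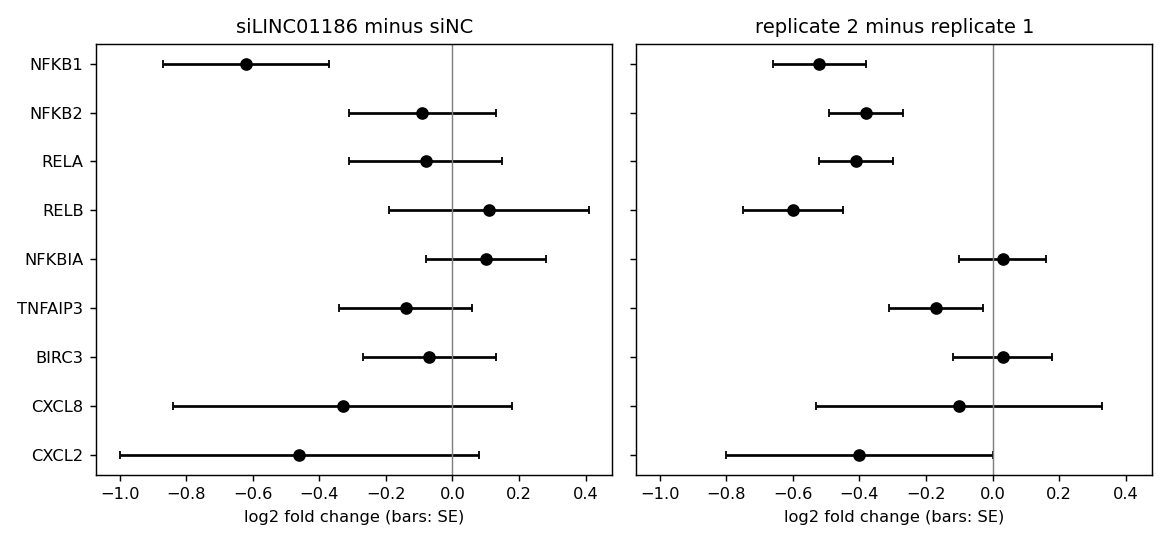
Log2 fold changes of the 9 members above the floor, with treatment on the left and replicate number on the right (points: edgeR estimate; bars: standard error; n = 2 libraries per group). On the right the 4 subunits lie between -0.60 and -0.38, while NFKBIA and BIRC3 lie at 0.03.

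The wider pathway was described with a list of 77 other genes by role, of which 71 were tested. Ligands were close to the floor: TNF had 1, 1, 4 and 2 counts (siNC and siLINC01186 of replicate 1, then of replicate 2), IL1B had 2, 3, 3 and 5, and CD40LG 0 in every library. The ligand highest in siNC was LTB, one chain of the lymphotoxin that drives the noncanonical branch, at 0.38 TPM, but this mean rests on 5 counts in siNC replicate 2 and 0 in the other siNC library. Receptors ranged widely, with a median of 2.67 TPM and a lowest value of 0.0166 TPM (TLR2), and 2 of the 10 had 3 counts or fewer in every library. Adaptors lay at 1.69 TPM or above and genes in the kinase role at 10.7 TPM or above. The highest receptor was TNFRSF12A, the TWEAK receptor, at 320 TPM. The highest adaptor was IRAK1, a kinase that works downstream of interleukin 1 and Toll-like receptors, at 348 TPM, and the highest gene in the kinase role was IKBKB, the catalytic IKKβ, at 26.5 TPM. REL, the remaining subunit gene, stood at 4.42 TPM in siNC, below all 4 member subunits. Among inhibitors TNIP1, which works with A20, was highest at 84.2 TPM, and among further targets IER3, a stress-response gene, at 175 TPM.

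Between replicates, 8 of the 71 pathway genes were lower and 5 higher in replicate 2 at an adjusted p under 0.05, where 9.55% and 7.96% of all genes tested were, so that the pathway list lay near the share of all genes. By the roles used in the list, TNFRSF12A was lower among receptors, IRAK1 and TRAF2 among adaptors, and IKBKG (the scaffold NEMO) among kinase subunits. Also lower were NFKBIB, NFKBIZ and TNIP2, listed in the inhibitor role, and IER3 among targets. TNFRSF12A had 212 and 196 CPM in replicate 1 and 91.9 and 86.1 CPM in replicate 2, a log2 fold change of -1.20 (SE 0.11, edgeR adjusted p = 2.47e-23). IRAK1 had 681 and 647 CPM against 459 and 402 CPM, a log2 fold change of -0.63 (SE 0.09, edgeR adjusted p = 1.89e-09). For both genes the replicate sets were far apart and the treatments within a set were close. TNIP2, an A20-binding inhibitor, also had a log2 fold change of -0.63, while those of NFKBIB (IκBβ), IKBKG, NFKBIZ (IκBζ), TRAF2 and IER3 were -0.48, -0.47, -0.40, -0.35 and -0.33. Higher in replicate 2 were the receptors TNFRSF1B (log2 fold change 0.78) and IL1R1 (0.76), the TNF receptor adaptor TRADD (0.59), and the targets GADD45B (0.64) and CD83 (0.49). REL was the 1 subunit gene not lower, at a log2 fold change of 0.18 with no call. The pathway median was -0.05 in each of the treatment and replicate comparisons. DESeq2's Wald test called 4 of the 71 genes between replicates.

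**Figure D5:**
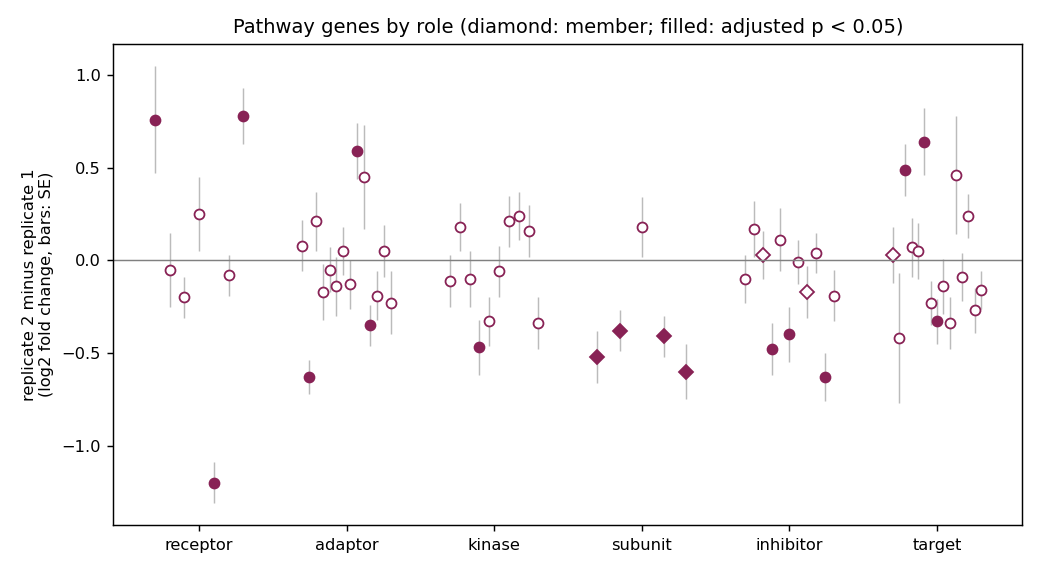
Replicate 2 minus replicate 1 log2 fold change (y axis; bars: standard error) for the 62 members and pathway genes with a sum of 100 or more counts in the 4 libraries, by role on the x axis; diamonds are members and filled symbols have an adjusted p under 0.05. In the subunit column the 4 filled diamonds lie below 0 and REL, the open circle, lies above it, while receptors, adaptors and targets have filled symbols on both sides of 0.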

How the data were processed

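RNA-seq of 4 libraries was used. The authors deposited unnormalized counts per gene and TPM values for each library; per the labels hg19 was the build, and HISAT2, TopHat2, Bowtie2 and HISAT are named without roles or versions in the submitters' processing notes. The counting program is not given in the sources used here, and the kit named in the study does not mark strand. In R 4.3.3, genes with 5 or more summed counts were scaled by TMM and tested with edgeR 4.0.16 (quasi-likelihood), with P-values adjusted by Benjamini-Hochberg over 23942 genes. Treatment was fitted alone, and replicate number was fitted with treatment as a covariate. CPM used TMM-scaled library sizes. TPM was used only between genes, because MIR6087 took 1.16% to 13.8% of TPM in a library. Ratios of 2 libraries have exact 95% intervals (scipy). Alternatives were DESeq2 1.42.0, library totals, other filters, a replicate block and leaving out libraries. Replicates differed beyond sampling noise (chi-square per gene 20.8 in siNC and 24 in siLINC01186). Named genes are the members, LINC01186, other pathway genes called, and the highest gene of each role. Members and lists were chosen with earlier results of these data known. The fitting script was tested on simulated data.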

Additional observations from a re-analysis of the deposited data

Results flagged for a closer look

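For RELB and 5 other pathway genes the siLINC01186 and siNC libraries differed in opposite directions in the replicate 1 and replicate 2 pairs, each beyond counting error; with 1 library per group in a pair, whether the pairs differ was not tested. Of all 23942 genes tested, 798 (3.33%) met the same rule, and libraries of 1 group also differed beyond counting error. RELB was at a log2 difference of 0.33 in replicate 1 and -0.23 in replicate 2, where the upper bound of its ratio was just under 1. IER3, a stress-response target, was at a log2 difference of 0.48 in replicate 1 and -0.40 in replicate 2, with 95.8 and 103 CPM in siNC and 133 and 78.4 CPM in siLINC01186. SOD2, the mitochondrial superoxide dismutase, was at 0.33 and -0.75, with 100 and 120 CPM in siNC and 126 and 71.5 CPM in siLINC01186. IL1RAP, the interleukin 1 receptor accessory chain, was at 0.42 and -0.63, and RIPK1, the kinase recruited to TNF receptor 1, at 0.42 and -0.25. RNF31, a subunit of the linear ubiquitin ligase, ran the other way, at -0.21 and 0.16.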

How the results depend on the processing

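With 2 libraries per group and 13 to 31 counts for CXCL8 and CXCL2, only large differences could be called, and CXCL1 was not measurable at this depth. Between treatments, 181 genes passed the study's limits; DESeq2's Wald test gave 27, filterByExpr 46 and leaving out each library 248 to 375 (375 without siNC replicate 2, 370 without siLINC01186 replicate 1, 282 without siLINC01186 replicate 2). With an adjusted p under 0.05 there were 0 genes, against 1 with DESeq2, 5 with at least 1 count in any library and 0 to 6 leaving out a library. Other pathway genes past the limits numbered 0, and 0 to 1 leaving out a library (1 without siNC replicate 1). The replicate block gave 278 genes with an adjusted p under 0.05 and 1 member, NFKB1 (log2 fold change -0.63, edgeR adjusted p = 0.00105). Same-numbered libraries deviated together (r = 0.563 across 16848 genes, which are not independent replicates), but nothing in the labels says what a number shares, so this stays an alternative; the block changed no other member's call. NFKB1 was lower in siLINC01186 under all 10 settings run (log2 -0.96 to -0.34), which reuse the same 4 libraries. NFKB2, RELA, RELB, BIRC3 and CXCL2, never called, ranged across 0.

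Between replicates, 4191 genes were called; DESeq2 gave 929, filterByExpr 2754 and no treatment term 2158. Members called numbered 4, against 0 with DESeq2 and 1 with no treatment term, and other pathway genes 13, against 4 with DESeq2, 8 with filterByExpr and 5 with no treatment term. Leaving out each library was not run with treatment in the model, which leaves no residual degrees of freedom; without that term, an alternative chosen after seeing the data, it gave 1294 to 3332 genes (1294 without siLINC01186 replicate 1, 1508 without siNC replicate 1), 1 to 4 members and 3 to 10 pathway genes. NFKB2 was not called with library totals (log2 -0.26) or filterByExpr (-0.36). The 4 subunits stayed lower in replicate 2 under all 10 settings run. The cause of these shifts was not tested. Of all values recomputed, 224 kept their side of the threshold or stayed within the allowed spread, 29 moved further, 18 lost the threshold and 1 gained it. A change of sign was counted only where an adjusted p was under 0.05, and none met this. Signs of uncalled values did change, as for RELB between treatments (log2 0.11 in the main model, -0.40 without siLINC01186 replicate 1).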
